A study of Homo sapiens with 9 samples.

Results

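The comparison set 3 RNA sequencing libraries of HepG2 cells given 30 µM eliglustat against 3 libraries of the same cells given 20 µM, to show which genes a 1.5-fold step in dose changed. These are 6 of the 9 libraries of the study, chosen by the dose that their labels give, and no untreated library entered the contrast. HepG2 is an established line from a human hepatocellular carcinoma, so every group is 1 line. Both doses were given for 72 h, per the labels. The other 3 libraries came from untreated cells, for which the labels state no time. They give the background level and the step from 0 to 20 µM. They also entered the filter on low counts, the scaling and the estimate of spread behind each SE and p-value. With only the 6 treated libraries in the fit, 16884 genes were tested and 9813 called, against 17623 and 10041 with all 9. The study's text also speaks of a lower dose, not analysed here, and of a further incubation that the labels tie to no library.

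Eliglustat inhibits glucosylceramide synthase, the enzyme encoded by UGCG, which adds glucose to ceramide in the Golgi apparatus. Glucosylceramide is the root of most glycosphingolipids: B4GALT5 and B4GALT6 turn it into lactosylceramide, from which sialyltransferases make gangliosides, while a separate branch adds sulfate to galactosylceramide. Ceramide that is not glycosylated can become sphingomyelin, and lysosomal hydrolases such as GLA and ARSA take the finished lipids apart. Hepatocytes and the lines derived from liver tumours secrete much of the plasma's protein and lipoprotein, and HepG2 cells keep many of these functions while they divide.

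The 6 treated libraries held between 23036384 and 26782810 counts in genes, and 17623 of the 62703 listed genes passed the filter on low counts and entered the test. Levels are CPM, counts scaled to a common TMM-adjusted library total. Changes are log2 values ± SE, 30 µM over 20 µM, from edgeR's quasi-likelihood test with Benjamini-Hochberg adjustment over those 17623 genes, and rises and falls are named only at an adjusted p under 0.05. Whether a dose's 3 libraries are separate cultures is not in the labels, and the p-values then reflect a spread that could be technical. In RNA from a whole culture, fewer cells of a kind and less RNA per cell cannot be told apart. All 8 hepatocyte markers were tested, and their summed level was 32282 to 32597 CPM at 20 µM and 37426 to 37758 CPM at 30 µM. That rise is the rise of APOB, TTR rose at a low level, and the sum of the 7 markers without APOB was 10565 to 11191 CPM and then 9568 to 10197 CPM, as ALB, AFP, APOA1, FGB and HNF4A fell and SERPINA1 did not pass. Of 6 fibroblast markers none passed the filter, COL1A2 and DCN were listed at 0 in every library, and the sum stayed between 0.0825 and 0.556 CPM. Of 5 endothelial markers 3 passed, with a sum of 4.86 to 6.34 CPM at 20 µM and 3.96 to 4.83 CPM at 30 µM. Within it VWF rose (log2 2.03) and CDH5 fell (-1.23). Of 6 leukocyte markers 2 passed and PTPRC was listed at 0 in every library. Their sum, 438 to 475 CPM and then 637 to 667 CPM, was almost all LYZ, the gene of the secreted enzyme lysozyme. Of 4 neural and muscle markers 1 passed, MYOD1 was listed at 0 in every library, and the sum went from 0.0835 to 0.122 CPM up to 0.867 to 1.07 CPM, nearly all of it MAP2.

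The step from 20 to 30 µM changed 10041 genes, 57.0% of those tested. Of these 4942 rose, 28.0% of the genes tested, and 5099 fell, 28.9%. The libraries of the doses did not overlap in 10763 genes (61.1%), among them 9613 of the 10041 genes called. Most changes were small: the median size was 0.44 log2 units among the rises and 0.57 among the falls, and the quartiles over all genes tested were -0.41 and 0.29. A change of at least 1 log2 unit was found in 2048 genes (11.6%), with 914 rises (5.19%) and 1134 falls (6.43%). Among the largest changes rises outnumbered falls. Rises of at least 2 log2 units numbered 265 and falls 127, while 73 genes rose and 10 fell by at least 3. The median of all genes tested was -0.03. Scaled by library size alone, 3029 genes rose while 7690 fell, with a shift of -0.19 in the overall median, so directions of small size are relative to the TMM scaling. The TMM factors lay between 1.04 and 1.05 at 20 µM and between 0.905 and 0.916 at 30 µM.

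**Figure D1:**
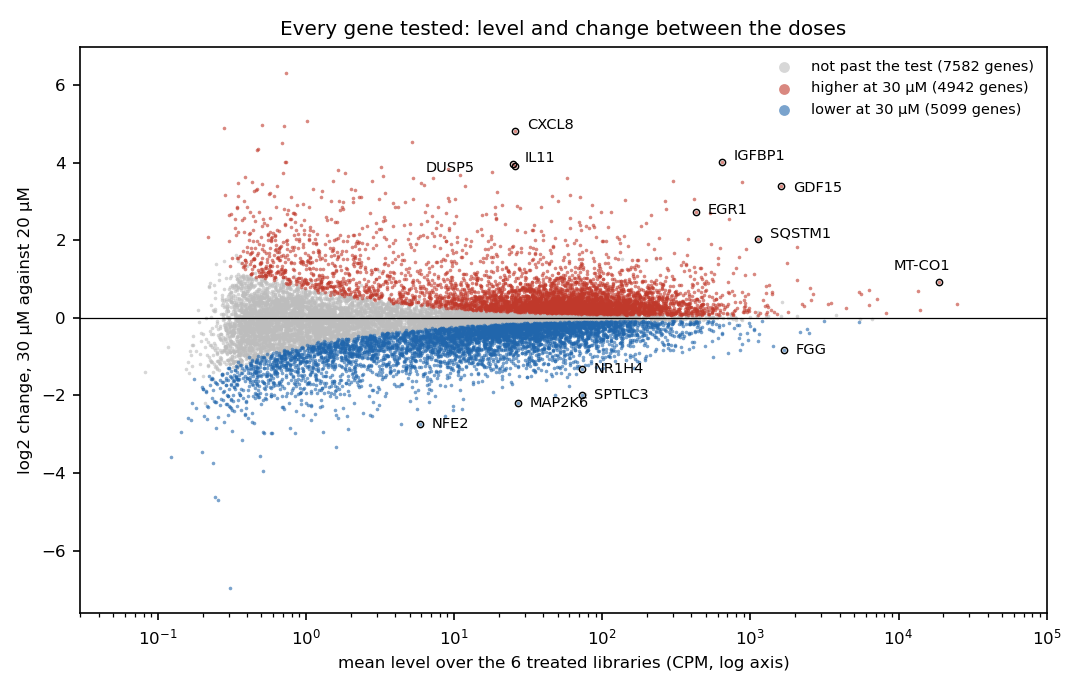
Log2 change from 20 to 30 µM (vertical axis) against the mean level over the 6 libraries (CPM, log axis) for the 17623 genes tested, with 4942 genes past the test upward, 5099 downward and 7582 not past it in separate colours. The points that reach farthest up, such as CXCL8 at 4.82 and IGFBP1 at 4.02, stand farther from 0 than the labelled falls, such as NFE2 at -2.75.

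The first principal component of log2 CPM over all 9 libraries held 60.9% of the variance. The untreated libraries lay at -41.3 to -41.1 on it, the 20 µM libraries at -22.2 to -21.1 and the 30 µM libraries at 62.7 to 63.1. The 30 µM libraries were thus farther from the 20 µM libraries than those were from the untreated ones. The median absolute change was 0.348 log2 units for the step from 20 to 30 µM and 0.202 for the step from 0 to 20 µM. These steps share the 20 µM libraries, so their values are set side by side below and their difference was tested in 1 fit. In that test the second step differed from the first in 7199 genes (40.9%), being more positive in 3696 (21.0%) and more negative in 3503 (19.9%).

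Among protein-coding genes with a mean of at least 5 CPM over the 6 libraries, the largest rise was that of CXCL8. It encodes the neutrophil-attracting chemokine interleukin-8, and its 20 µM libraries alone lay below that mean. Its level was 2.001, 1.59 and 1.67 CPM in the 20 µM libraries and 50.2, 49.2 and 49.8 CPM in the 30 µM libraries, beside 0.615 ± 0.301 CPM in untreated cells (mean ± SD, n = 3). Every library of the higher dose lay far above every library of the lower, and the log2 change was 4.82 ± 0.11 (adjusted p = 1.2e-26). IGFBP1, which hepatocytes secrete and which holds insulin-like growth factors in the blood, reached 1202, 1199 and 1231 CPM at 30 µM from 72.1, 74.7 and 77.4 CPM at 20 µM, a log2 change of 4.02 ± 0.17 (adjusted p = 1.2e-06). Its untreated level was 9.33 ± 3.97 CPM. The groups did not overlap, and the 30 µM libraries differed from each other by little. IL11, a cytokine of the interleukin-6 family, went from 2.87, 2.76 and 3.43 CPM to 45.2, 46.98 and 48.8 CPM (log2 3.96 ± 0.10, adjusted p = 1.6e-25). DUSP5, a nuclear phosphatase that inactivates ERK kinases, had 3.47, 2.88 and 3.22 CPM at 20 µM and 47.5, 48.5 and 48.9 CPM at 30 µM (log2 3.91 ± 0.10, adjusted p = 3.7e-26). Both genes were low in all 20 µM libraries, and the step from untreated cells to 20 µM measured 0.45 for IL11 and 0.59 for DUSP5. The other genes among the 12 largest rises were C11orf96 (4.52), the AMP deaminase AMPD3 (3.84), the Ras-related protein RASD1 (3.75), the secreted factor METRNL (3.68), the cell cycle regulator RGCC (3.61), the kinase ALPK3 (3.61), the muscle ankyrin repeat protein ANKRD1 (3.59) and IER3.

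IER3, an immediate early gene of cell survival, and GDF15, a secreted stress cytokine, rose from a higher base. IER3 was at 48.7, 48.4 and 48.2 CPM and then at 558, 554 and 555 CPM (log2 3.52 ± 0.040, adjusted p = 1.4e-35). GDF15 was at 273, 278 and 293 CPM and then at 2917, 2899 and 3061 CPM (log2 3.39 ± 0.038, adjusted p = 2.1e-34). In both genes the libraries of a dose lay close together and the doses stood far apart. For IER3 the second step exceeded the first by 3.37 log2 units (adjusted p = 1.7e-26). TRIB1, a pseudokinase that steers protein degradation (3.02), and JAG1, a Notch ligand (2.54), also rose.

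**Figure D2:**
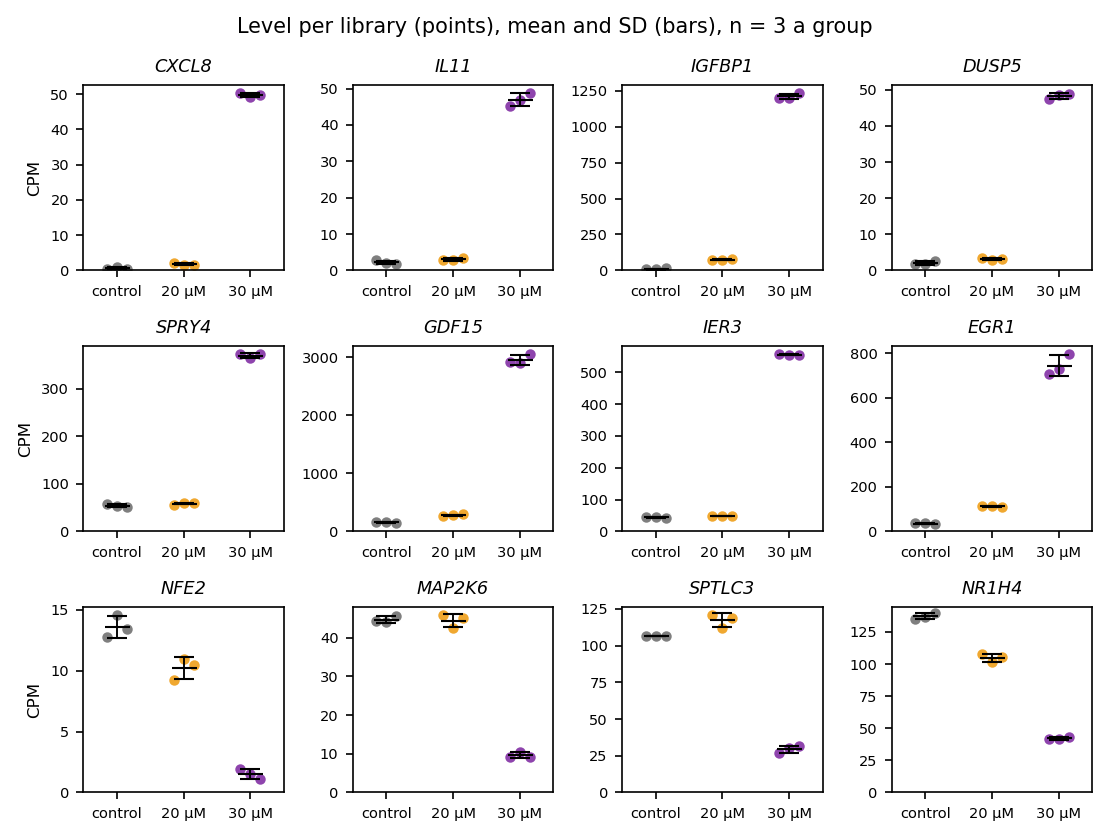
Levels in CPM (linear axis from 0) of 12 genes in every library of untreated, 20 µM and 30 µM cells, with points for libraries and bars for mean and SD (n = 3). For the 8 genes from CXCL8 to EGR1 the 30 µM points lie above all others, and for NFE2, MAP2K6, SPTLC3 and NR1H4 they lie below.

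The largest falls were smaller in size than the largest rises. Among protein-coding genes with the same minimum mean of 5 CPM, NFE2, a transcription factor of the blood lineages, fell most. It went from 9.21, 10.98 and 10.4 CPM at 20 µM to 1.94, 1.53 and 1.11 CPM at 30 µM (log2 -2.75 ± 0.15, adjusted p = 5.8e-17). MAP2K6, a kinase that activates p38, went from 45.8, 42.4 and 45.1 CPM to 9.12, 10.6 and 9.25 CPM (log2 -2.20 ± 0.068, adjusted p = 1.1e-23). SPTLC3, a subunit of serine palmitoyltransferase, the first enzyme of sphingolipid synthesis, went from 121, 112 and 119 CPM to 26.9, 30.1 and 31.6 CPM (log2 -1.99 ± 0.050, adjusted p = 3.7e-26). None of these genes overlapped between the doses. SPTLC3 had moved little in the first step (0.14), and the second step differed from it by -2.13 log2 units (adjusted p = 1.9e-20). The others among the 12 largest falls were MAB21L4 (-2.53), the sodium channel SCN1A (-2.36), SSPOP (-2.35), the glycogen-targeting phosphatase subunit PPP1R3C (-2.28), the hormone erythropoietin, EPO (-2.14), NYNRIN (-2.07), SMTNL2 (-2.03), the calcium channel subunit CACNB4 (-1.99) and LACTBL1 (-1.95). Falls with small p-values included SLC22A7, a liver uptake transporter of organic anions (-1.76), KLB, the co-receptor of the hormone FGF21 (-1.30), and NR1H4, which encodes the bile acid receptor FXR. NR1H4 went from 108, 101 and 105 CPM to 41.5, 41.5 and 43.2 CPM, with no overlap (log2 -1.32 ± 0.043, adjusted p = 6.0e-23).

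The gene of the drug's target rose again with the dose. UGCG (GRCh38, chromosome 9: 111896766-111935369) was at 41.5, 41.6 and 46.6 CPM in the 20 µM libraries and at 86.8, 85.9 and 93.1 CPM in the 30 µM libraries, with 23.7 ± 1.51 CPM in untreated cells (mean ± SD, n = 3). Every 30 µM library was above every 20 µM library, and the log2 change was 1.04 ± 0.054 (adjusted p = 2.1e-17). The step from untreated cells to 20 µM measured 0.87, and the difference between the steps did not pass the test (0.17 log2 units, SE 0.10, adjusted p = 0.187). B4GALT5, the lactosylceramide synthase (chromosome 20: 49632945-49713878), went from 218, 219 and 219 CPM to 378, 385 and 384 CPM, with tight and separate groups (log2 0.81 ± 0.033, adjusted p = 1.7e-20). B4GALNT1, which makes the gangliosides GM2 and GD2, rose as well (1.19). In the other direction, GAL3ST1, the sulfotransferase that makes sulfatide (chromosome 22: 30554635-30574587), was at 14.7, 15.9 and 15.1 CPM and then at 6.16, 5.20 and 6.28 CPM. The groups did not overlap, and the log2 change was -1.37 ± 0.10 (adjusted p = 8.6e-14), after 0.17 in the first step. ST3GAL1, a sialyltransferase that acts mostly on glycoproteins, went from 130.0, 128 and 130.2 CPM to 73.9, 72.1 and 72.3 CPM (log2 -0.83 ± 0.039, adjusted p = 9.7e-19). In each of the 58 gene lists below, the counts stand against the 28.0% of all genes tested that rose and the 28.9% that fell. Every list median is lower by 0.19 with library size alone and by 0.08 with upper-quartile factors. Counts under these scalings are given where they differ by more than 1.5 times and by more than 1 gene. Of 10 glycosphingolipid synthesis genes tested, 4 rose, 3 fell and 3 did not pass. Their median of 0.11 turned negative with library size alone (-0.08), was -0.03 without 30 µM library 2, 0.23 without 20 µM library 1 or 30 µM library 1, and 0.40 without 20 µM library 3. Among genes with at least 50 counts on average it was 0.79, and with limma voom 0.24.

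Most ceramide and sphingomyelin genes moved upward, while SPTLC3 and CERK fell. Of 19 tested, 14 rose, 2 fell and 3 did not pass (median 0.31, against -0.03 for all genes tested), with 9 rises and 5 falls with library size alone. SGMS2, a sphingomyelin synthase of the plasma membrane, was at 10.95, 10.7 and 11.7 CPM at 20 µM and at 64.1, 57.1 and 52.6 CPM at 30 µM. The 30 µM libraries were spread more widely than the 20 µM libraries but all lay above them, and the log2 change was 2.38 ± 0.079 (adjusted p = 5.5e-22). SAMD8, which makes the sphingomyelin analogue ceramide phosphoethanolamine, rose by 0.88, and CERK, the ceramide kinase, fell (-0.20). Among 10 genes of sphingosine 1-phosphate, 6 rose and 2 fell. The phosphatases SGPP1 (0.70) and PLPP1 (0.54) rose, and the kinase SPHK2 fell (-0.91).

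Lysosomal sphingolipid hydrolases split. Of 15 tested, 5 rose, 7 fell and 3 did not pass, and the median of 0.0081 had no stable sign. It was -0.19 with library size alone (3 rises and 9 falls), -0.07 with upper-quartile factors, -0.045 without 20 µM library 1, -0.0083 without 30 µM library 1, -0.054 without 30 µM library 3 and 0.03 without 20 µM library 2. In the first step 13 had risen and 0 fallen (median 0.37), where that step changed 34.2% of all genes tested, 17.2% upward and 16.9% downward. The second step was more negative than the first in 11 of the 15, against 19.9% of all genes. A rise in the first step itself lowers that difference, so this count is not separate from the 13 rises. GLA, the alpha-galactosidase lacking in Fabry disease, rose from 23.8, 23.2 and 25.1 CPM to 44.3, 46.5 and 39.7 CPM without overlap (log2 0.86 ± 0.066, adjusted p = 4.0e-13). The sialidase NEU4 (-0.95) and GM2A, the GM2 activator protein (-0.69), fell. ARSA, the sulfatase that degrades sulfatide (chromosome 22: 50622754-50628173), was at 20.7, 21.8 and 24.2 CPM and then at 19.7, 16.6 and 19.3 CPM, with ranges that did not overlap by a small margin. Its fall (-0.26 ± 0.080, adjusted p = 0.00544) did not pass without 20 µM library 3 (-0.20, adjusted p = 0.0572) or without 30 µM library 2 (-0.19, adjusted p = 0.0687).

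**Figure D3:**
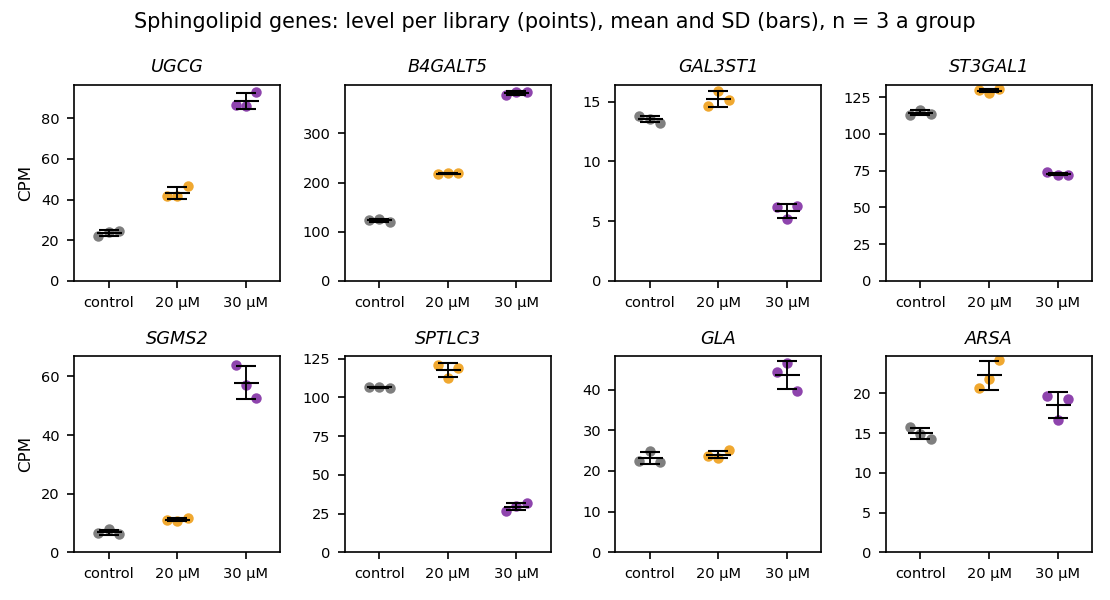
Levels in CPM of 8 sphingolipid genes in every library of untreated, 20 µM and 30 µM cells, with points for libraries and bars for mean and SD (n = 3). UGCG, B4GALT5, SGMS2 and GLA are highest at 30 µM, while GAL3ST1, ST3GAL1 and SPTLC3 are lowest there, and ARSA at 30 µM (mean 18.5 CPM) lies between its untreated mean (14.97) and its 20 µM mean (22.3).

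Other lysosomal genes rose in the main, with a balance that depended on the scaling. Of 23 lysosomal proteases and membrane proteins, 14 rose and 4 fell, led by the cathepsins CTSB (1.28) and CTSL (1.09), but library size alone gave 8 rises and 7 falls. Of 16 subunits of the proton pump that acidifies the lysosome, 12 rose and 0 fell (median 0.33), and library size alone gave 10 rises and 3 falls. Autophagy, the route that delivers cytoplasm to the lysosome, gave 27 rises and 5 falls among 37 genes, and 17 rises and 7 falls with library size alone. SQSTM1, the cargo receptor p62, went from 433, 445 and 455 CPM to 1818, 1793 and 1817 CPM, more than any other member (log2 2.03 ± 0.031, adjusted p = 4.8e-32). The groups lay far apart. GABARAPL1, a relative of LC3 on the autophagosome, rose by 2.01. The protease ATG4C (-0.59) and TFEB, a transcription factor of lysosomal genes (-0.35), fell.

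Fatty acid genes fell more often than they rose, and cholesterol genes went both ways. Of 24 cholesterol genes 14 rose and 7 fell, with a median of 0.11 that turned to -0.08 with library size alone (7 rises and 13 falls), after a median of 0.42 in the first step. The sterol demethylase CYP51A1 rose by 0.50 and the sterol reductase TM7SF2 fell (-0.60). Among 22 genes of fatty acid and triglyceride synthesis 5 rose and 13 fell, with median -0.14 after 0.30. The acyltransferase DGAT2, which makes triglyceride (-1.38), and the acetyl-CoA carboxylase ACACB (-1.29) fell, while PLIN2, a lipid droplet coat protein (1.28), and the phosphatase LPIN1 (0.83) rose. Fatty acid oxidation gave 20 falls and 3 rises among 27 genes (median -0.34, after 0.15). The peroxisomal enzyme EHHADH (-1.34) and the mitochondrial dehydrogenase HADH (-0.93) fell. CPT1A, which brings fatty acids into mitochondria (0.84), and the dehydrogenase ACADVL (0.38) rose.

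Immediate early transcription factors, which cells switch on within minutes of a growth factor or stress signal, rose as a whole list: 22 of 22 rose, against 28.0% of all genes tested, and 19 of them by at least 1 log2 unit, against 5.19% (median 2.23). EGR1, a zinc finger factor of this class, was at 112, 114 and 112 CPM at 20 µM and at 708, 728 and 796 CPM at 30 µM, beside 35.1 ± 2.25 CPM in untreated cells. The 30 µM libraries were all above the 20 µM libraries, with a log2 change of 2.72 ± 0.043 (adjusted p = 6.2e-27). FOSL1, a partner of JUN in the AP-1 factor, had 11.1, 10.8 and 11.2 CPM and then 81.2, 89.5 and 95.9 CPM (log2 3.01 ± 0.068, adjusted p = 1.4e-27). Its first step had measured 0.034, from an untreated level of 10.8 ± 0.645 CPM, and the 30 µM libraries alone stood apart. ATF3, a stress-induced factor, rose by 2.87 ± 0.067. The CArG box is the site of serum response factor in many of these genes. The 250 bases before the RefSeq start of EGR1 are shown because they hold 2 such boxes (GRCh38.p14, chr5:138465229-138465478, plus strand, boxes in capitals, 105 to 96 and 83 to 74 bases before the start).
EGR1: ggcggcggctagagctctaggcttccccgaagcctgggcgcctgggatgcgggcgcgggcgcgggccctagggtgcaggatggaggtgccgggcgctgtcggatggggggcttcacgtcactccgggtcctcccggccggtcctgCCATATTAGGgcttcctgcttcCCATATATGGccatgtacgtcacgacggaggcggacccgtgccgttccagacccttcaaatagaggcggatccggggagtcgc
A CArG box on either strand was found in 3 of the 17 promoters available for the list (17.65%), in 1.179% of all 27305 promoters of that length and in 0.9956% of the 11049 promoters of genes tested. A match of letters is a description of the sequence only.

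Genes that report on and restrain ERK signalling rose with them. Of 19 ERK feedback genes 18 rose (median 0.93), among them DUSP5. SPRY4, an inhibitor of receptor tyrosine kinase signalling, was at 56.3, 59.2 and 59.9 CPM at 20 µM and at 372, 364 and 372 CPM at 30 µM. The groups stood apart, with a log2 change of 2.66 ± 0.041 (adjusted p = 6.0e-32). The 1 fall was DUSP7, another ERK phosphatase (-0.35). Among 10 EGF receptor family members and ligands 8 rose, with the ligands AREG and EREG in front. AREG, or amphiregulin, went from 2.38, 3.22 and 3.06 CPM to 16.5, 18.3 and 18.1 CPM, each 30 µM library lying above each 20 µM library (log2 2.62 ± 0.13, adjusted p = 1.7e-18). EREG, or epiregulin, rose by 2.58 ± 0.10. The receptors ERBB2 (-0.52) and ERBB3 (-0.11) were the 2 that fell. In the first step the medians of these 2 lists had been 0.12 and 0.27.

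Of 20 cytokines and chemokines listed, 10 were tested (median 2.30), of which 9 rose and 1 fell (-1.48). Those too low to test included IL6 and CCL2, at 0 in every library, and TNF, with at most 11 counts in any library. PTPRC, the marker of all leukocytes, was at 0 in every library. After CXCL8 and IL11 came CCL20, a chemokine of lymphocytes (3.17 ± 0.086), and LIF, a relative of interleukin-6 (3.11 ± 0.061). NF-kB subunits, inhibitors and targets gave 16 rises and no fall among 19 genes. RELB, a non-canonical subunit, had 6.65, 7.06 and 6.28 CPM and then 29.03, 26.6 and 30.5 CPM, without overlap (log2 2.11 ± 0.11, adjusted p = 4.3e-17). The adhesion receptor ICAM1 (1.90), the apoptosis inhibitor BIRC3 (1.74) and the subunit NFKB2 (1.65) came next. Interferon-induced and antigen presentation genes went the other way more often, with 4 rises and 10 falls among 21, and 1 rise and 14 falls with library size alone. IFIH1, a sensor of viral RNA, fell (-0.80), while the exonuclease ISG20 rose (0.98).

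Genes of cell shape and adhesion rose together. Of 24 actin cytoskeleton genes 22 rose (median 0.65, 21 rises and 3 falls with library size alone), including FHL2, a co-factor at focal adhesions (1.95 ± 0.12), and the actin-bundling protein TAGLN (1.64 ± 0.064). The bundling protein FSCN1 fell (-0.23). Of 16 targets of YAP and TEAD, the effectors of the Hippo pathway, 12 rose and 2 fell (11 rises and 4 falls with library size alone), with ANKRD1 the highest and the ectonucleotidase NT5E the lowest (-0.39). CCN1, a matrix-associated protein, was at 18.7, 19.9 and 21.6 CPM and then at 148, 152 and 152 CPM. The doses did not overlap, and the log2 change was 2.91 ± 0.055 (adjusted p = 1.6e-29). Among 20 integrins and matrix proteolysis genes 16 rose and 3 fell. ITGA2, a collagen-binding integrin chain, rose (2.80 ± 0.043), and ITGB4 (-0.31) and the matrix protein SPARC (-0.25) fell. Keratins and junction genes gave 10 rises and 1 fall among 15. KRT23 (3.24 ± 0.11), CLDN6, a tight junction protein of embryonic epithelia (1.83 ± 0.077), and the biliary-type keratin KRT19 (1.43) rose. KRT18, a hepatocyte keratin with many processed copies whose counts are uncertain, had a first step of -0.41 and a second step of 1.40.

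**Figure D4:**
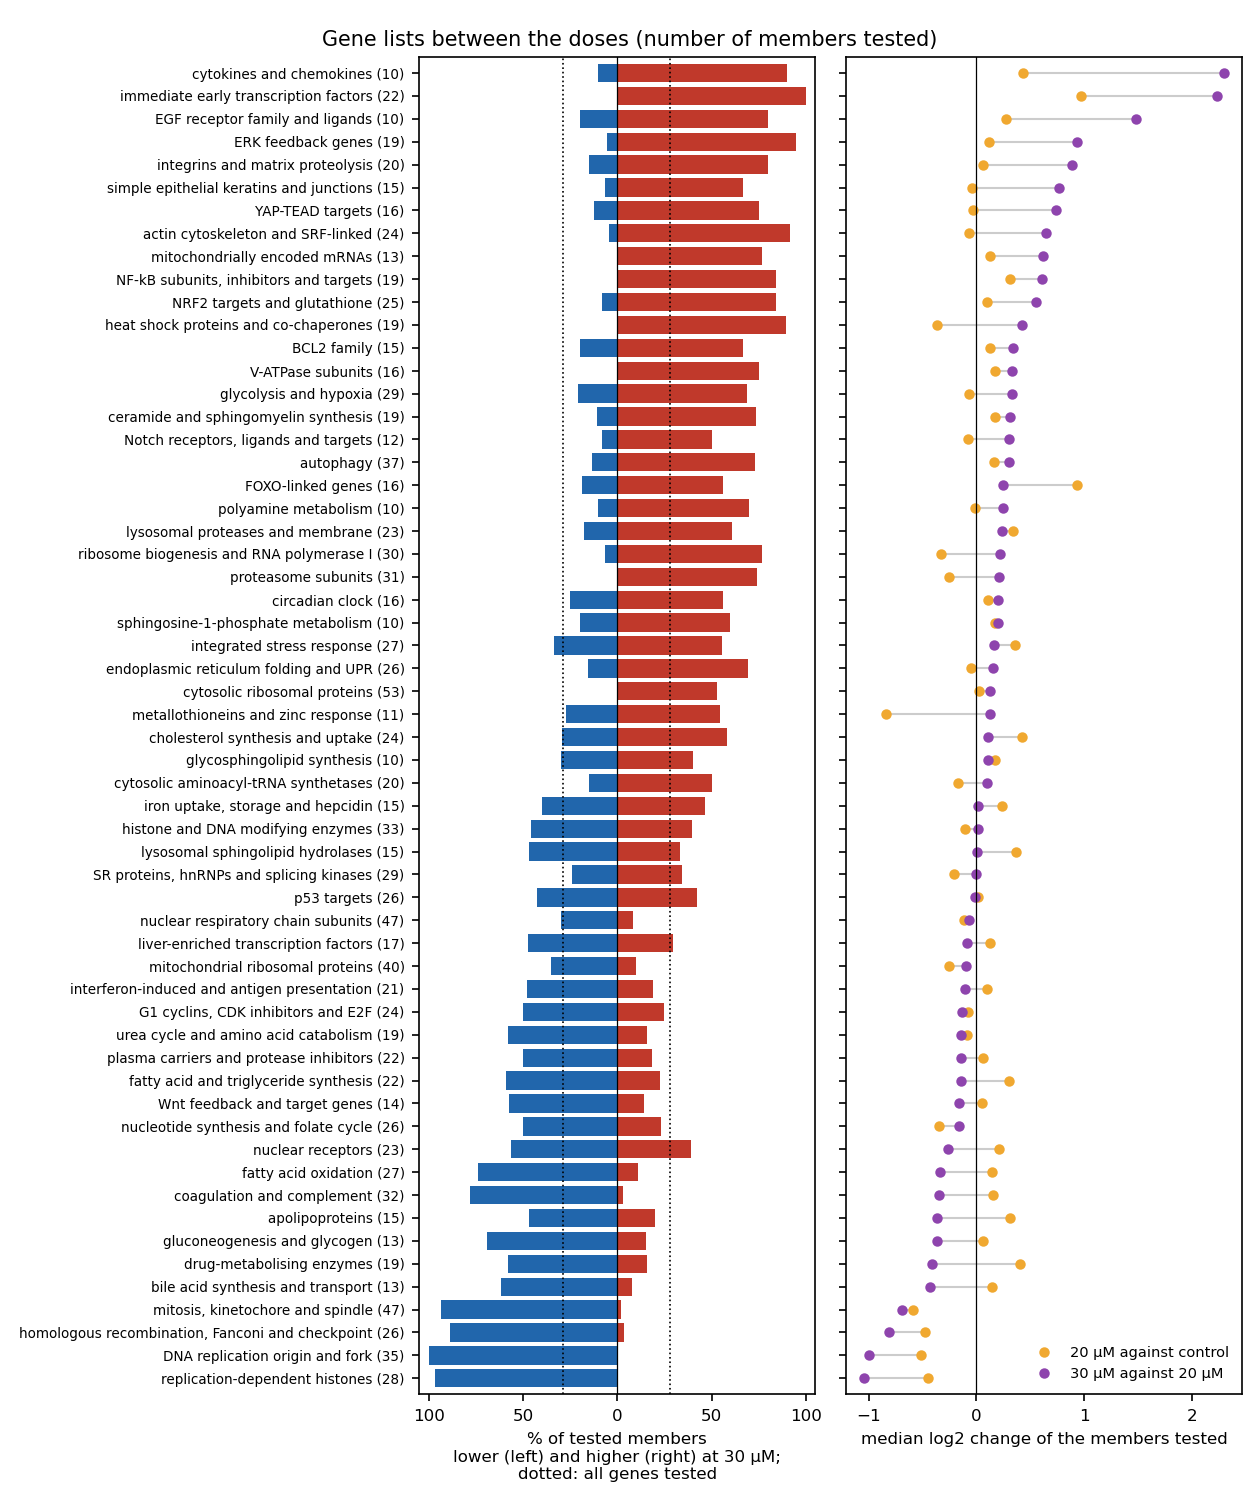
Share of tested members that rose or fell from 20 to 30 µM in each of the 58 gene lists (bars, percent, dotted lines at the 28.0% and 28.9% of all genes tested), beside each list's median log2 change from untreated to 20 µM and from 20 to 30 µM (points). Immediate early factors and cytokines lie farthest right in the second step (medians 2.23 and 2.30), and histones and DNA replication genes farthest left (-1.04 and -1.002).

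Genes of DNA replication, mitosis and recombination fell. All 35 DNA replication genes tested fell (median -1.002), against 28.9% of all genes tested. All 35 had already fallen in the first step (median -0.51), against 16.9% of all genes tested. The second step was more negative in 26 of them, against 19.9% of all genes. The helicase subunits GINS2 (-1.45 ± 0.067, adjusted p = 8.1e-19) and GINS1 (-1.34), the polymerase subunit POLD3 (-1.33) and the clamp loader RFC5 (-1.25) fell most among those named. Of 47 mitosis genes 44 fell and 1 rose (median -0.69), after 46 falls in the first step (median -0.59). The second step was more negative in 10 of the 47 and more positive in 6, against 19.9% and 21.0% of all genes. KIF20A, a motor protein of the dividing cell's midzone, went from 65.3, 64.6 and 66.4 CPM to 30.6, 28.8 and 31.3 CPM, with 109.6 ± 4.13 CPM in untreated cells. SPC24, a subunit of the kinetochore's NDC80 complex, went from 24.5, 24.8 and 23.6 CPM to 9.77, 10.4 and 11.8 CPM. Neither gene overlapped between the doses, and the log2 changes were -1.11 ± 0.049 and -1.19 ± 0.075 (adjusted p = 2.1e-19 and 2.4e-15). The checkpoint protein BUB3 was the 1 that rose (0.16), and its sign turned with library size alone (-0.03). Homologous recombination and Fanconi genes gave 23 falls and 1 rise among 26, after 24 falls in the first step (median -0.48). The second step was more negative in 16 of the 26 and more positive in 2. EME1, of a structure-specific nuclease, fell by the most (-1.92 ± 0.13) and BRCA1 fell as well (-1.30), while WEE1, the kinase that holds CDK1 inactive, rose (1.0).

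Promoters of KIF20A and SPC24 are shown because the CCAAT box, read by the factor NF-Y, is common among mitotic genes. They are 250 bases before the RefSeq starts (GRCh38.p14), with the box or its reverse complement ATTGG in capitals, KIF20A at chr5:138178862-138179111 on the plus strand and SPC24 at chr19:11155783-11156032 on the minus strand.
KIF20A: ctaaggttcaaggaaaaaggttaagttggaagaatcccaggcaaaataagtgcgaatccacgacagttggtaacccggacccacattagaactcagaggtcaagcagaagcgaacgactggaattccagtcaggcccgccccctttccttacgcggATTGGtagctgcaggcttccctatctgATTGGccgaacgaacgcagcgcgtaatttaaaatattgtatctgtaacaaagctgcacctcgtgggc
SPC24: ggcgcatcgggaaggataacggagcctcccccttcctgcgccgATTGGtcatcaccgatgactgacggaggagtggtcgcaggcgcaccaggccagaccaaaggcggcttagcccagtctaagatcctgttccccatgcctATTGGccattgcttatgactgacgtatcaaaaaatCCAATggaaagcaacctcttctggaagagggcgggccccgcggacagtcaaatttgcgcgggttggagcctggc
CCAAT on either strand was found in 28 of 38 promoters of the mitosis list (73.68%), 15 of 29 of the replication list (51.72%) and 34.88% of the 11049 promoters of genes tested. The cell cycle homology region, searched as TTTGAA on either strand, was found in 21 of 38 mitosis promoters (55.26%), in 0 of 29 replication promoters and in 8.87% of those of genes tested. An E2F site, searched as TTTCCCGC on either strand, was in 1 of 38 mitosis promoters (2.632%), in 5 of 29 replication promoters (17.24%) and in 2.064% of those of genes tested. Over all 27305 promoters the shares were 32.9% for CCAAT, 13.67% for TTTGAA and 1.395% for TTTCCCGC. No word searched contains another, though neighbouring matches may share end bases and a CArG box may hold a CCAAT.

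Replication-dependent histone genes, transcribed in S phase, fell in 27 of 28 (median -1.04, after -0.45 in the first step). Together they took 0.326 ± 0.0156% of gene counts at 20 µM and 0.153 ± 0.00344% at 30 µM (mean ± SD, n = 3). The groups did not overlap (two-sided exact permutation p = 0.1, the smallest that 3 against 3 libraries can give). H1-5 (-1.49) and H2BC14 (-1.46) were among them, but near-identical copies make single histone genes uncertain. G1 genes split, with 6 rises and 12 falls among 24. CDKN2B, which encodes the CDK4 and CDK6 inhibitor p15, went from 2.04, 2.34 and 2.16 CPM to 17.3, 17.5 and 19.7 CPM without overlap (log2 3.06 ± 0.13, adjusted p = 8.6e-20). CDKN2A, its neighbour in the genome, rose too (1.45), whereas the repressors and activators E2F8 (-1.87) and E2F2 (-1.73) fell. Nucleotide synthesis genes fell in 13 and rose in 6 of 26. The thymidylate synthase TYMS fell (-0.996), and IMPDH1, of guanine nucleotide synthesis, rose (0.65).

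Among p53 targets 11 rose and 11 fell of 26, and the median of -0.02 turned to 0.0017 with median-ratio factors and was -0.21 with library size alone and -0.10 without 30 µM library 2. The kinase PLK3 (2.26) and GADD45B (1.62) rose, and the repair factor DDB2 (-1.27) and the stress protein SESN1 (-0.95) fell. In the BCL2 family 10 of 15 genes rose and 3 fell. MCL1, a survival protein, went from 222, 223 and 239.8 CPM to 842, 863 and 838 CPM, the largest rise of the family and without overlap (log2 1.89 ± 0.034, adjusted p = 3.5e-30). Its relative BCL2L1 rose too (1.17), and the death-promoting BCL2L11 fell (-0.32).

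Antioxidant and protein folding genes were higher at 30 µM. Of 25 NRF2 targets and glutathione genes 21 rose and 2 fell (median 0.56, after 0.10 in the first step), and 20 rises and 4 falls were found with library size alone. GCLC, the catalytic subunit of the rate-limiting enzyme of glutathione synthesis, had 148, 145 and 151 CPM at 20 µM and 596, 629 and 598 CPM at 30 µM. The groups stood apart (log2 2.04 ± 0.036, adjusted p = 2.0e-30). Its partner GCLM rose by 1.85 ± 0.048, and the glutathione transferase GSTA1 fell (-1.15). Heat shock proteins and co-chaperones had 17 rises and no fall among 19 (median 0.42), after a median of -0.37 in the first step. HSPA8, the constitutive cytosolic chaperone, was at 1379 ± 13.9 CPM in untreated cells, 991, 996 and 1016 CPM at 20 µM and 1549.8, 1570.3 and 1527 CPM at 30 µM. The 20 µM libraries lay below both of the other groups, and the steps were -0.46 and 0.63. HSPA1A (0.91), which has a near-identical copy and is uncertain, HSPH1 (0.74) and DNAJB1 (0.72) rose most. Proteasome subunits likewise gave 23 rises and no fall among 31 (median 0.21, after -0.26). With library size alone that median was 0.01, with 8 rises and 6 falls, and upper-quartile factors gave 17 rises and 3 falls. PSMD2 (0.67) and PSMD12 (0.51) of the regulatory particle led them.

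The integrated stress response, which ATF4 drives when translation is held back, gave 15 rises and 9 falls among 27 genes, with a median of 0.16 that turned to -0.03 with library size alone and was 0.26 without 30 µM library 2. GDF15 rose, and PPP1R15A, the phosphatase subunit that ends the response, went from 25, 23.7 and 24.7 CPM to 118, 117 and 120.1 CPM. Its groups did not overlap (log2 2.27 ± 0.049, adjusted p = 6.7e-28). NUPR1, a small chromatin protein (-1.23 ± 0.13), and PHGDH, of serine synthesis (-0.61), fell. Of 26 endoplasmic reticulum genes 18 rose and 4 fell, with a median of 0.15 that became -0.04 with library size alone (9 rises and 10 falls). ERN1, the sensor IRE1 (1.03), and the co-chaperone DNAJB9 (0.98) rose, and CRELD2, a secreted folding factor, fell (-0.46). Cytosolic tRNA synthetases gave 10 rises and 3 falls of 20, with a median of 0.10 that became -0.09 with library size alone (4 rises and 10 falls), while upper-quartile factors gave 7 rises and 7 falls. HARS1 rose (0.70) and LARS1 fell (-0.29). Of 11 metallothionein and zinc genes 6 rose and 3 fell (median 0.12). With library size alone the median was -0.07, with 3 rises and 4 falls, and in a fit of the 6 treated libraries it was 0.20. MT2A and MT1E, whose near-identical relatives make counts uncertain, had first steps of -0.84 and -1.79 and second steps of 1.88 and 0.66.

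Ribosome synthesis genes rose by small amounts with the TMM scaling. Of 30 ribosome biogenesis genes 23 rose and 2 fell (median 0.22, after -0.33 in the first step). With library size alone the median was 0.03, with 11 rises and 6 falls. RRP12 (0.96) and the helicase DDX21 (0.90) were the largest, and UBTF, a factor of RNA polymerase I, fell (-0.15). Cytosolic ribosomal proteins had 28 rises and no fall among 53, but the median of 0.13 was -0.07 with library size alone, with 0 rises and 13 falls, and upper-quartile factors gave 12 rises and 0 falls. Polyamine genes rose in 7 of 10 (4 rises and 3 falls with library size alone), led by the enzymes that acetylate and oxidise polyamines, SAT1 and SMOX (1.34). SAT1 was at 55.7, 53.96 and 56.4 CPM and then at 206, 213 and 211 CPM, with no overlap (log2 1.92 ± 0.040, adjusted p = 2.2e-28). ODC1, which starts their synthesis, had a first step of -0.52 and a second of 0.50.

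Mitochondrially encoded mRNAs rose in 10 of 13 (median 0.62) and none fell. The number of rises was 6 with library size alone and also 6 without 20 µM library 1, 20 µM library 2 or 30 µM library 3, with medians between 0.43 and 0.59. Without the 50 most abundant genes, 4 of these mRNAs were tested and 2 rose. MT-CO1, the catalytic subunit of cytochrome c oxidase, went from 12777, 13022 and 12739 CPM to 24924, 23712 and 24597 CPM (log2 0.93 ± 0.032, adjusted p = 3.3e-21). Its groups did not overlap, and MT-CYB of complex III rose by 0.77 ± 0.15. Their share of gene counts was 3.43 ± 0.508% in untreated cells, 3.66 ± 0.177% at 20 µM and 5.40 ± 0.329% at 30 µM (mean ± SD, n = 3). The doses did not overlap, with a two-sided exact permutation p of 0.1 for 30 against 20 µM. Nuclear genes of the same respiratory chain had 4 rises and 14 falls among 47 (median -0.07). Library size alone gave 2 rises and 42 falls, upper-quartile factors 2 rises and 23 falls, and the rises numbered 2 without 20 µM library 1 or 30 µM library 1. NDUFV2 of complex I rose (0.92) and NDUFB10 of the same complex fell (-0.49). Mitochondrial ribosomal proteins gave 4 rises and 14 falls among 40, and 1 rise and 28 falls with library size alone. Glycolysis and hypoxia genes rose in 20 and fell in 6 of 29 (median 0.33). SLC2A1, the glucose transporter GLUT1, had 263, 295 and 276 CPM and then 966, 931 and 993 CPM, without overlap (log2 1.79 ± 0.037, adjusted p = 9.6e-28). The phosphofructokinase PFKP rose by 1.82 ± 0.18. SLC2A3, another glucose transporter, had a first step of -1.09 and a second of 1.46. Of 13 genes of gluconeogenesis and glycogen 2 rose and 9 fell, among them PPP1R3C and SLC37A4, the glucose 6-phosphate transporter (-1.0), while the glycogen branching enzyme GBE1 rose (0.89).

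Transcripts of plasma proteins and apolipoproteins made by the liver fell more often than they rose. Coagulation and complement genes had 25 falls and 1 rise among 32 (median -0.35, after 0.16 in the first step). The coagulation factor F7 (-0.86 ± 0.085, adjusted p = 1.4e-10) and the fibrinogen chain FGA (-0.56) fell. FGG, another fibrinogen chain, went from 2122, 2121 and 2229 CPM to 1218, 1236 and 1187 CPM, without overlap (log2 -0.83 ± 0.032, adjusted p = 4.3e-21). Of 22 plasma carriers and protease inhibitors 11 fell and 4 rose (2 rises and 16 falls with library size alone, 2 rises and 11 falls with upper-quartile factors), with ITIH1, of an inhibitor that binds hyaluronan (-1.39 ± 0.14), and the haemoglobin carrier HP (-1.11 ± 0.055) lower and the thyroid hormone carrier TTR higher (0.49). Apolipoproteins gave 3 rises and 7 falls among 15. APOA5 (-1.44 ± 0.051) and APOC3 (-0.98 ± 0.065), which act on triglyceride-rich particles, fell. APOB, the core protein of those particles and among the most abundant mRNAs here, was at 21852, 21303 and 21406 CPM and then at 27858, 28143 and 27317 CPM. Its groups were apart and it rose by 0.37 ± 0.027 (adjusted p = 8.5e-14).

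The regulators of those genes were lower in part. Among 17 liver-enriched transcription factors 8 fell and 5 rose (3 rises and 10 falls with library size alone), in opposite ways within 1 family. CEBPA, which maintains hepatocyte genes, had 218, 249.5 and 241 CPM at 20 µM and 101, 106 and 119 CPM at 30 µM (log2 -1.12 ± 0.076, adjusted p = 1.5e-06). CEBPB, the relative linked to acute stress, had 105, 112 and 106 CPM and then 222, 246 and 281 CPM (log2 1.22 ± 0.11, adjusted p = 6.8e-05). Neither gene overlapped between the doses, and FOXA1, a factor that opens liver chromatin, fell (-1.04). Of 23 nuclear receptors 13 fell and 9 rose. Beside NR1H4, the thyroid hormone receptor THRB fell (-0.76), and NR0B2, a repressor that FXR induces (1.27 ± 0.053), and PPARG, the receptor of fat storage (1.02), rose. Bile acid genes fell in 8 and rose in 1 of 13 (median -0.43). AKR1D1 (-1.57 ± 0.14) and ACOX2 (-1.34 ± 0.071), enzymes of bile acid synthesis, fell, and SLC51B, a subunit of the basolateral bile acid exporter, rose (0.98). Drug-metabolising enzymes gave 11 falls and 3 rises among 19. The median was -0.41, and -0.63 without 20 µM library 3. SULT1A1, a sulfotransferase of phenols, fell (-0.95), and CYP1A1, the cytochrome induced through the aryl hydrocarbon receptor, rose (1.52 ± 0.048), as did CYP3A5 (0.69). Urea cycle and amino acid genes fell in 11 and rose in 3 of 19, with the glutamate dehydrogenase GLUD1 at -0.84. Iron genes had 7 rises and 6 falls of 15, with a median of 0.01 that was -0.18 with library size alone and -0.06 with upper-quartile factors, and -0.0088 without 20 µM library 2. The iron exporter SLC40A1 rose (1.82 ± 0.066) and TFR2, a sensor of iron-loaded transferrin, fell (-0.59).

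Of the other signalling lists, Notch genes had 6 rises and 1 fall among 12 (4 rises and 2 falls with library size alone), with JAG1 and the target HES4 (1.04) higher. HEY1, another Notch target, had a first step of -1.29 and a second of 1.20. Wnt feedback and target genes gave 2 rises and 8 falls among 14 (0 rises and 11 falls with library size alone), with RNF43, a ligase that removes Wnt receptors, at -0.88 and the glutamine synthetase GLUL at -0.42. FOXO-linked genes rose in 9 and fell in 3 of 16, and 4 rises and 3 falls were found with library size alone. DEPP1, an autophagy regulator (2.02), and IGFBP1 rose, and SESN3 fell (-1.28). Clock genes gave 9 rises and 4 falls among 16 (5 rises and 6 falls with library size alone), with the repressors BHLHE40 (2.34 ± 0.051) and CRY1 (0.90) higher and the factor TEF lower (-1.18). Splicing factors had 10 rises and 7 falls of 29, with a median of -0.0092 that became 0.01 with median-ratio factors, 0.0016 without 20 µM library 3 and 0.02 without 30 µM library 3. The balance of calls turned to 2 rises and 21 falls with library size alone (median -0.20) and to 3 rises and 14 falls with upper-quartile factors. The kinase CLK1 rose (0.55) and SRSF6 fell (-0.35). Histone and DNA modifiers had 13 rises and 15 falls of 33, with a median of 0.01 that became -0.18 with library size alone, -0.07 with upper-quartile factors, -0.03 without 20 µM library 1 and -0.0023 without 20 µM library 3. The demethylase KDM6B (1.09) rose, and UHRF1 (-1.22) and DNMT3B (-0.87), which maintain and set DNA methylation, fell.

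Some genes turned direction between the steps. Of the genes that rose in the first step, 930 (30.6%) fell in the second, beside 28.9% of all genes tested, and 1403 (46.2%) rose again. Of those that fell in the first, 929 (31.2%) then rose, beside 28.0% of all genes tested, and 1236 (41.4%) fell again. The shares that turned were thus close to those of all genes. For each gene below both steps passed the test, the levels of 20 and 30 µM did not overlap, and the 20 µM libraries enter both values. CUBN, an endocytic receptor, was at 9.37 CPM in untreated cells, 20.3 CPM at 20 µM and 6.46 CPM at 30 µM (means), with steps of 1.12 and -1.65. MAF, a transcription factor, had steps of 1.65 and -1.10, and the prostaglandin receptor PTGDR2 1.01 and -1.11. SESN3 and NUPR1 had the same shape, with 1.12 then -1.28 and 1.09 then -1.23. The reverse shape was found in MYOF, a membrane repair protein, which was at 5.16, 2.55 and 11.7 CPM, with steps of -1.004 and 2.19. SRARP (-0.71 then 0.99), SLC2A3, HEY1 and MT2A also fell and then rose.

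The shares of calls differed with the kind and level of a gene. Of 12449 protein-coding genes tested 35.6% rose and 32.8% fell (median 0.0026), whereas of 2797 long non-coding RNAs 10.2% rose and 25.6% fell (median -0.24). With library size alone the protein-coding shares were 21.69% and 49.92%, and with upper-quartile factors 29.5% and 39.14%. For long non-coding RNAs they were 6.972% and 36.32%, and 8.974% and 29.78%. An excess of falls is not particular to long non-coding RNAs. Protein-coding genes in the lowest of 5 equal bins by level had it too (15.8% rose, 32.2% fell, median -0.27). Among the long non-coding RNAs with a mean of at least 5 CPM, ENSG00000275894 (2.85), MIR23AHG (2.71), PRECSIT (2.42), LUCAT1 (2.41) and CYTOR (2.27) rose most. UICLM (-2.38), ENSG00000275437 (-2.18), ENSG00000236283 (-1.86) and TUSC8 (-1.63) were 4 of the 5 that fell most. Those that overlap another gene are uncertain because the strand setting of the counting is not given in the sources used here. Together long non-coding RNAs took 2.16 ± 0.0919% of gene counts at 20 µM and 2.07 ± 0.0531% at 30 µM (two-sided exact permutation p = 0.2).

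Protein-coding genes of higher level rose more often, with level taken as the mean over the same treated libraries. A rise therefore also lifts a gene's level, and a fall lowers it. In the lowest of 5 equal bins by level, with a median of 1.52 CPM, 15.8% rose and 32.2% fell, and in the highest bin, with a median of 157 CPM, 58.1% rose and 22.8% fell. The median change went from -0.27 in the lowest bin to 0.15 in the highest. With library size alone the highest bin had more falls than rises (35.18% rose, 43.99% fell, median -0.04), and the lowest bin had 12.7% rises and 41.6% falls. By gene length the share of rises went from 26.6% in the bin of shortest genes to 44.4% in the longest, and from 15.68% to 27.95% with library size alone. Of 206 ZNF genes on chromosome 19, which include many zinc finger repressors, 30 rose (14.6%) and 79 fell (38.3%), with median -0.18. Among all genes tested 28.0% rose and 28.9% fell. The other 724 protein-coding genes of that chromosome gave 239 rises and 206 falls (median 0.01). With library size alone 4.854% of the ZNF genes rose and 57.28% fell. An excess of falls is not particular to them: the lowest bin by level had it too, and in the second lowest 21.3% rose and 43.8% fell. The 50 most abundant genes took 18.4 ± 0.105% of gene counts at 20 µM and 20.9 ± 0.218% at 30 µM, without overlap (two-sided exact permutation p = 0.1). The part of level, length and this share in the counts of rises and falls was not tested.

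**Figure D5:**
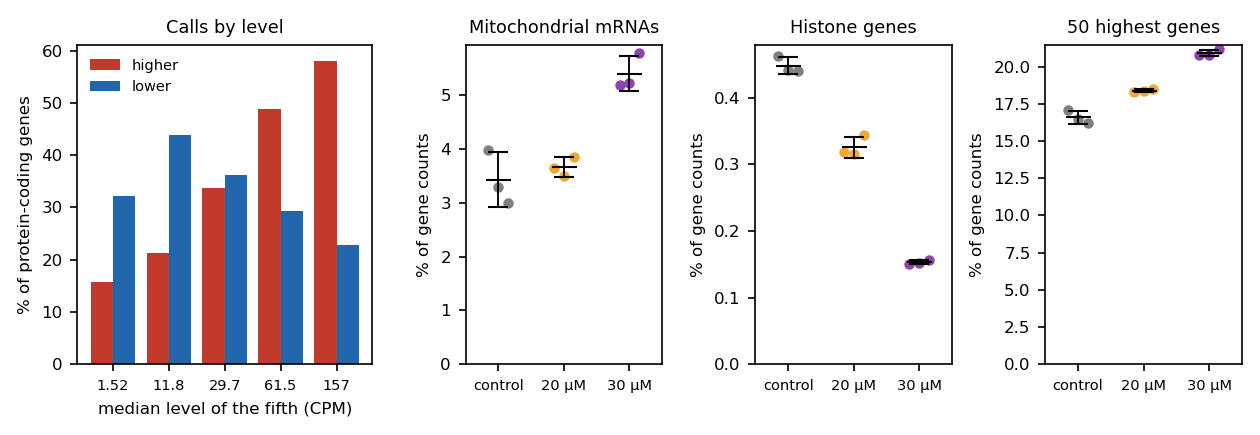
Left, percent of protein-coding genes past the test upward or downward from 20 to 30 µM in 5 equal bins of mean level (median CPM of each bin on the axis). Right, percent of gene counts taken by mitochondrially encoded mRNAs, histone genes and the 50 most abundant genes in each library. Rises climb from 15.8% to 58.1% over the bins, and at 30 µM the mitochondrial and top 50 shares are highest and the histone share lowest.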

How the data were processed

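RNA of HepG2 cells was sequenced in 9 libraries, 3 each for untreated cells, 20 µM and 30 µM eliglustat (72 h). Per the labels' protocols, total RNA was depleted of ribosomal RNA and made into stranded libraries, read as paired ends of 75 bases, whereas the labels' molecule field reads polyA RNA. The deposited files hold whole-number counts of reads per gene, not normalized. The submitters' processing notes name FastQC, STAR 2.7.10a, HTSeq and the genome build hg38. For the annotation release and the strand setting, the entry is: not given in the sources used here. Records in no single gene were left out of library sizes and tests. On average 23.5% of records at 20 µM and 21.5% at 30 µM lay in no gene, 4.34% and 4.12% were ambiguous, and 14.6% and 16.8% were multi-mapped.

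All 9 libraries were fitted together in edgeR 4.0.16 (R 4.3.3, limma 3.58.1) after filterByExpr, with TMM factors, robust quasi-likelihood and contrasts of 30 against 20 µM, 20 µM against untreated and the difference of those steps. The biological coefficient of variation was 0.0529. The genes tested held 99.9% of gene counts. Symbols were found for 62639 of 62703 identifiers, and GENCODE 29 gave type and position for 58220. Promoters, from RefSeq (GRCh38.p14), were found for 1088 of 1382 list symbols.

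Named genes were protein-coding with adjusted p under 0.05, a mean over the 6 libraries of 5 CPM or more and doses that did not overlap: the 12 largest changes and 4 smallest p-values in each direction, up to 4 genes a list, 5 each that rose then fell or fell then rose, and 5 long non-coding RNAs in each direction. UGCG, B4GALT5, GAL3ST1, ARSA, IGFBP1, CXCL8 and GDF15 were always named. A few genes that this rule takes are not reported here. The 58 lists hold 1382 symbols, all matched, of which 1276 were tested. The members and lists were chosen with earlier results of these data known.

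Replicates were compared by chi-square (2.1 to 7.94 per gene), so no library counts as deposited again. In simulated data with the spread of these libraries, 200 of 17220 genes were changed (5 draws). There, 30.4%, 56.4%, 68% and 92% of changes of 0.25, 0.5, 1 and 2 log2 units were recovered. Of the calls 7.447% were false, more than the threshold of 0.05 aims at. The simulation changed far fewer genes than the 10041 called in the real comparison, so these shares need not hold for it. Alternatives were median-ratio, upper-quartile and library-size scaling, DESeq2 1.42.0, limma voom, other filters, the 6 treated libraries alone, another dispersion, a replicate block and each library left out.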

Additional observations from a re-analysis of the deposited data

How the results depend on the processing

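The number of genes changed between 20 and 30 µM stayed between 8715 and 10719 over the 22 alternatives, and between 9276 and 10113 when single libraries were left out. With library size alone 3029 genes rose and 7690 fell, 1817 fell by at least 1 log2 unit, and the second step was more positive in 2240. Upper-quartile factors gave 4108 rises and 6067 falls. With at least 50 counts on average, which tests 12503 genes, 1042 genes changed by at least 1 log2 unit (488 rises and 554 falls), and among nuclear protein-coding genes 1351 did (702 falls). Without the 3 libraries that deviate together from their groups (control 1, 20 µM library 3 and 30 µM library 3), 9335 genes were called. Over all records instead of gene counts, the share of mitochondrial mRNAs rose by 0.993 percentage points and that of histone genes fell by 0.0997. Of 5698 recomputed values of the 260 named genes, 5667 kept direction and side of the threshold, 29 lost the call and 2 reversed, both with library size alone: TBX3 (-0.0208, adjusted p = 0.572) and BUB3 (-0.0333, adjusted p = 0.45). Of the lists, 12 of 58 had a median that turned sign under some scaling, as given with each. The labels do not say that equal numbers pair libraries, so the main fit took no pairs. Deviations of same-numbered libraries of the doses correlated at 0.152, 0.0767 and 0.352. Those of different-numbered libraries correlated at -0.256 to 0.137. With a replicate block 9955 genes were called (4921 rises and 5034 falls), 2027 by at least 1 log2 unit, and the second step differed in 7103. With 3 libraries a dose, permutation tests of shares cannot go below 0.1, and genes not past the test may have changed by small amounts.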
